A study of Mus musculus with 10 samples.

Results

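The genes described here encode the WNT co-receptors Lrp5 and Lrp6, the receptor tyrosine kinase-like WNT receptors Ryk, Ror1, Ror2 and Ptk7, and the R-spondin receptors Lgr4, Lgr5 and Lgr6. They were taken by gene symbol, 9 of 53167 listed genes, and each was found on a single row of the count table. The BGN group held 5 samples of primary epithelial cells from wild-type mouse mammary gland with biglycan protein, a proteoglycan of the matrix around cells, added to the medium at 100 ng/mL. The 5 Control samples were the same kind of cells with no added protein, and all cultures were kept in DMEM with 10% serum. The strain, sex and age of the mice and the duration of stimulation were not given in the sources used here. Whether each sample was its own animal or culture is not stated, and the p-values therefore measure only a spread among samples that may be technical. The study asked whether biglycan acts through WNT signalling, and these receptors are where that pathway begins.

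At the cell surface, a WNT ligand joins a Frizzled receptor to Lrp5 or Lrp6, whose phosphorylated tail then draws Axin away from the complex that destroys beta-catenin. Ror1, Ror2, Ryk and Ptk7 serve mainly the beta-catenin-independent branches, among them planar polarity and cell movement, with Wnt5a as a well-known ligand of the Ror proteins. Lgr4, Lgr5 and Lgr6 bind R-spondins, and the complex removes the ubiquitin ligases Rnf43 and Znrf3, which otherwise clear Frizzled and LRP receptors from the membrane. In the mouse mammary gland, loss of Lrp5 or Lrp6 impairs ductal development, and Lgr5 and Lgr6 have been used to mark epithelial progenitor cells.

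The libraries held 18292624 to 21820560 counted reads. Their cells carried markers of both mammary layers: the summed level of 12 basal markers, in counts scaled to a common library total (CPM), was 6159 to 6522 in BGN samples and 6142 to 7462 in Control samples, and that of 10 luminal progenitor markers was 4834 to 5138 CPM in BGN libraries and 5076 to 5353 CPM in Control libraries. Sums for 10 fibroblast markers lay between 46.4 and 52.7 CPM in BGN libraries and between 40.6 and 59.8 CPM in Control libraries, with Pdgfra making up most of the sum, and those for 9 endothelial markers between 19.6 and 24.4 CPM in BGN libraries and between 22.4 and 24.3 CPM in Control libraries, with Flt1 making up most. Sums for 8 lymphocyte markers reached at most 0.0917 CPM in BGN libraries and 0.0516 CPM in Control libraries, with 6 of the 8 at 0 counts in all 10 libraries. Sums for 9 hormone-sensing luminal markers lay between 264 and 304 CPM in BGN libraries and between 257 and 323 CPM in Control libraries. Within the luminal progenitor list, averages over the 10 libraries ran from 1.28 CPM for Lalba to 1118 CPM for Csn3. Most of the basal sum was Krt14 and Krt5. Krt14 was at 3528 ± 88.1 CPM in BGN libraries and 3745 ± 358 CPM in Control libraries (SD, n = 5 each). Contractile genes of that list were uneven: over the 10 libraries Acta2 averaged 27.7, Mylk 3.94, Cnn1 0.271 and Myh11 0.202 CPM. Oxtr, of the same list, averaged 166 CPM. Outside Pdgfra, the fibroblast genes Col1a1, Dcn and Pdgfrb averaged 4.42, 2.64 and 0.612 CPM over the 10 libraries. Col1a2, Col3a1, Lum, Dpt, Fap and Thy1, of the same list, averaged 0 to 0.439 CPM. Outside Flt1, the endothelial genes Pecam1 and Eng averaged 5.26 and 2.36 CPM, and Esam and Tek 0.160 and 0.0813 CPM. Cdh5, Kdr, Emcn and Cldn5 averaged 0 to 0.0509 CPM. The summed myeloid markers averaged 20.8 CPM in BGN libraries and 20.7 CPM in Control libraries, with Cd163 making up most. By two-sided exact permutation tests between BGN and Control, 0 of 14 such library measures passed (smallest Benjamini-Hochberg adjusted p = 0.333). The smallest p this test can give with 5 libraries per group is 0.00794. A single measure could therefore not pass after adjustment over 14, and the result does not show that the groups were alike. Unadjusted p by this test was 0.0476 for the luminal progenitor sum and 0.0317 for the lymphocyte sum. In bulk RNA of this kind, fewer cells of a type and less RNA per cell cannot be told apart.

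Of the 9 receptor genes, 8 were expressed well above the filter on low counts and 0 of these 8 passed the test between BGN and Control, where 0% of all 14415 tested genes passed (edgeR quasi-likelihood test, adjusted p under 0.05; DESeq2 and limma-voom also called 0). At an unadjusted p under 0.05 there were 0 of 8, against 4.81% of all tested genes, while DESeq2 and limma-voom each gave 0 of 8 as well. In 0 of 8 receptors were the BGN and Control ranges of CPM separate, against 0.728% of all tested genes. Ror2 was left out of the test because it was at the edge of detection. Estimates lay above 0 for 6 receptors and below 0 for 2, with a median log2 fold change of 0.03, whereas 48.0% of all tested genes had estimates above 0 and their median was -0.0040. The interval of the fold change, at 95% confidence, lay within 1.5-fold in either direction for 7 of the 8, the exception being Lgr5.

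**Figure D1:**
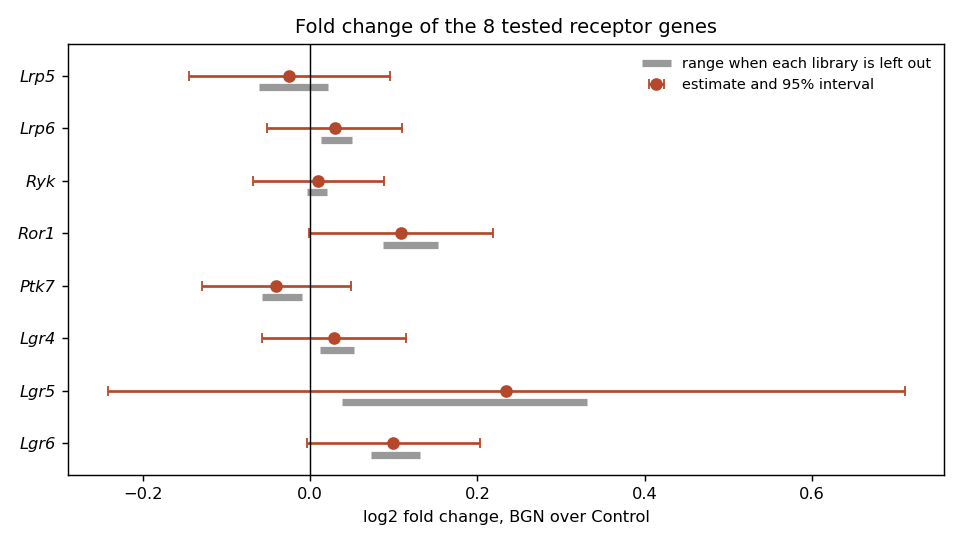
Log2 fold change of each of the 8 tested receptor genes, BGN over Control, with its 95% interval (points and whiskers) and the range of estimates when each of the 10 libraries is left out in turn (grey bars). Every interval includes 0, and that of Lgr5, from -0.24 to 0.71, is the widest.

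Per length of transcript, Ryk and Ptk7 were the most abundant of the family and Ror2 the least. The CPM of single genes, here and above, carries the TMM scaling of edgeR, while summed CPM is relative to library totals. Levels between genes were compared as CPM per kilobase of exon. The mean over 10 libraries was 40.98 for Ryk, 38.7 for Ptk7, 24.5 for Lgr4, 21.9 for Lrp6 and 20.1 for Lrp5. It was 15.5 for Lgr6, 10.6 for Ror1, 2.74 for Lgr5 and 0.0662 for Ror2. The ranges over 10 libraries overlapped between Ryk and Ptk7, between Lgr4 and Lrp6 and between Lrp6 and Lrp5, and did not overlap between any other neighbours in this order. Within libraries, Ryk exceeded Ptk7 in 9 of 10, Lgr4 exceeded Lrp6 in 10 of 10 and Lrp6 exceeded Lrp5 in 8 of 10. With the longest coding transcript in place of the whole exon length, Lrp5 at 37.9 stood above Lrp6 at 31.9 and Lgr4 at 28.5 CPM per kilobase. The order of these 3 therefore rests on the length used, while the other 6 kept their places.

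**Figure D2:**
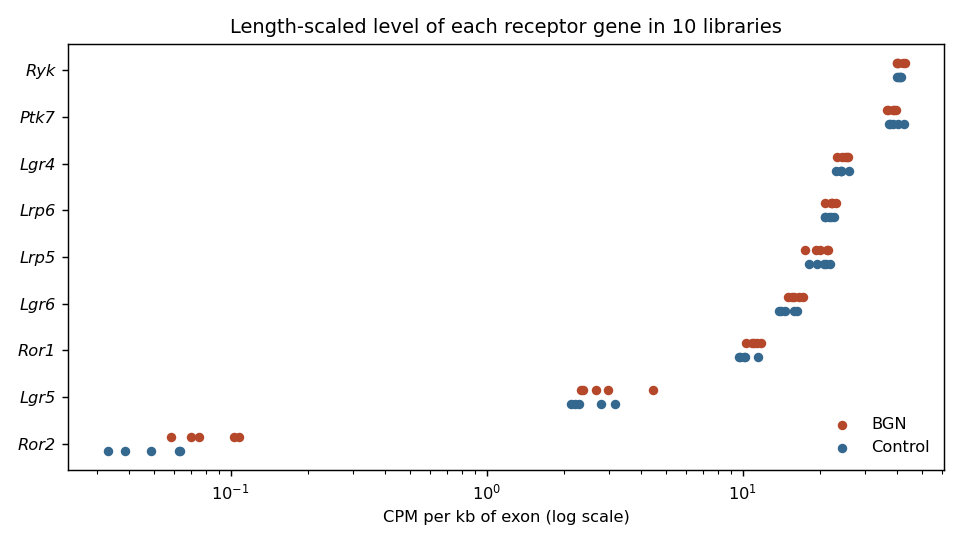
CPM per kilobase of exon on a log axis for the 9 receptor genes, 1 point per library, with BGN above Control in each row. Genes run from Ryk at the top to Ror2 at the bottom, and Lgr5 and Ror2 stand apart from the other 7.

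The LRP co-receptors were expressed side by side. Lrp6, which is required for WNT signalling through beta-catenin in many mouse tissues, had 304, 316, 301, 286 and 304 CPM in the 5 BGN libraries, against 287, 287, 309, 301 and 297 CPM in the 5 Control libraries. BGN replicate 2 was the highest library and BGN replicate 4 the lowest of all 10, so that the BGN libraries spanned all the Control values. The log2 fold change was 0.03 ± 0.039 (SE), with a 95% interval of -0.05 to 0.11 (adjusted p = 0.977 by edgeR). It was 0.0133 without BGN replicate 2 and 0.0503 without BGN replicate 4.

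Lrp5, the paralogue of Lrp6, was at 207, 189, 209.9, 195 and 169.8 CPM in BGN libraries, against 189, 205, 203, 177 and 213 CPM in Control libraries. The lowest values came from BGN replicate 5 and Control replicate 4. Its log2 fold change was -0.02 ± 0.057 (SE; interval -0.14 to 0.10; adjusted p = 0.986 by edgeR), and turned to 0.02 without BGN replicate 5 and to 0.0044 without Control replicate 5. Lrp5 made up 47.4 ± 2.45% of the length-scaled Lrp5 and Lrp6 signal in BGN and 48.3 ± 2.01% in Control by exon length, and 53.8 ± 2.45% in BGN and 54.7 ± 1.998% in Control by the longest coding transcript (SD, n = 5 each).

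The kinase-like receptors ranged from the most to the least abundant of the family per length. Ryk, which binds WNT through an extracellular WIF domain, was the steadiest gene of the family, with 182, 181, 183, 194 and 192 CPM in BGN libraries and 186, 181, 188, 187 and 183 CPM in Control libraries. All 10 libraries lay within a 1.07-fold range. Its log2 fold change was 0.0100 ± 0.038 (SE; interval -0.07 to 0.09; adjusted p = 0.989 by edgeR), or -0.0034 without BGN replicate 4.

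Ptk7, a catalytically inactive kinase of planar polarity and directed cell movement, was at 208, 197, 210.0, 213 and 198 CPM in BGN libraries, against 217, 201, 208, 201 and 228 CPM in Control libraries. Control replicates 5 and 1 were the highest, and the other 3 Control libraries lay among the BGN libraries. The log2 fold change was -0.04 ± 0.043 (SE; interval -0.13 to 0.05; adjusted p = 0.975 by edgeR), and -0.0099 without Control replicate 5.

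Ror1 was the Ror gene that these cells expressed. It had 59.2, 62.3, 63.5, 65.5 and 67.5 CPM in BGN libraries and 55.6, 58.4, 58.8, 66.1 and 56.1 CPM in Control libraries. The 5 BGN libraries lay above 4 of the 5 Control libraries, and Control replicate 4 lay among the highest BGN libraries. Its log2 fold change was 0.11 ± 0.053 (SE; interval -0.00083 to 0.22; adjusted p = 0.945 by edgeR), and 0.0871 to 0.153 without single libraries.

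Ror2, whose loss alters branching of the mouse mammary epithelium, was barely detected. The raw counts were 6, 8, 9, 5 and 7 reads in BGN and 3, 3, 5, 4 and 5 reads in Control, or 0.352 ± 0.0914 CPM in BGN libraries and 0.209 ± 0.058 CPM in Control libraries (SD, n = 5 each). BGN libraries were mostly the higher, but the CPM of the groups overlapped. Over the 10 libraries the coefficient of variation was 37.1%, below the 42.6% that counting alone gives at a mean of 5.5 reads, so no spread beyond counting error was detectable at this depth. In a fit without the filter on low counts the log2 fold change was 0.73 with an interval from -0.33 to 1.80 (adjusted p = 0.734 by edgeR). Within each library Ror1 had 139 to 264 reads per Ror2 read in BGN and 209 to 414 in Control.

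Since Ror1 and Ror2 are close relatives and only Ror1 was well detected here, the 250 bases before their annotated starts are shown, from RefSeq's GRCm38.p6 table (the counts were made on GRCm39, so these positions do not apply to them). Ror1 is on the plus strand at chr4:100095541-100095790 and Ror2 on the minus strand at chr13:53286125-53286374. Capitals mark the core of the TCF/LEF motif, CTTTG, searched on both strands (CAAAG on the printed one).
Ror1: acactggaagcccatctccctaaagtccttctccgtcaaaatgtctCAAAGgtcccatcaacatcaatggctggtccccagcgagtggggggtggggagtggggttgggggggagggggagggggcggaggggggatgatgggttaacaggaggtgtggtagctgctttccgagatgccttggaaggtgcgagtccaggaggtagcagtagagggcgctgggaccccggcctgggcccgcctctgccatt
Ror2: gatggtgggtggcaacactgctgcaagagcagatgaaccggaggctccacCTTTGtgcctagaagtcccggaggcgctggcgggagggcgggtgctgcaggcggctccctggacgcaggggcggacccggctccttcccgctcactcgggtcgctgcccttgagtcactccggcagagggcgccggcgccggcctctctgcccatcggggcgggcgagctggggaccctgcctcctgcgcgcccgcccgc
Each stretch held 1 match, where 48.6% of 32851 promoter stretches of the same length held at least 1. The Ror2 stretch had 24 CpG sites and 73.2% G and C, and the Ror1 stretch 8 CpG sites and 62.4%, against medians of 6 sites and 52.4% over all stretches. The table matched 6 of the 9 receptors.

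**Figure D3:**
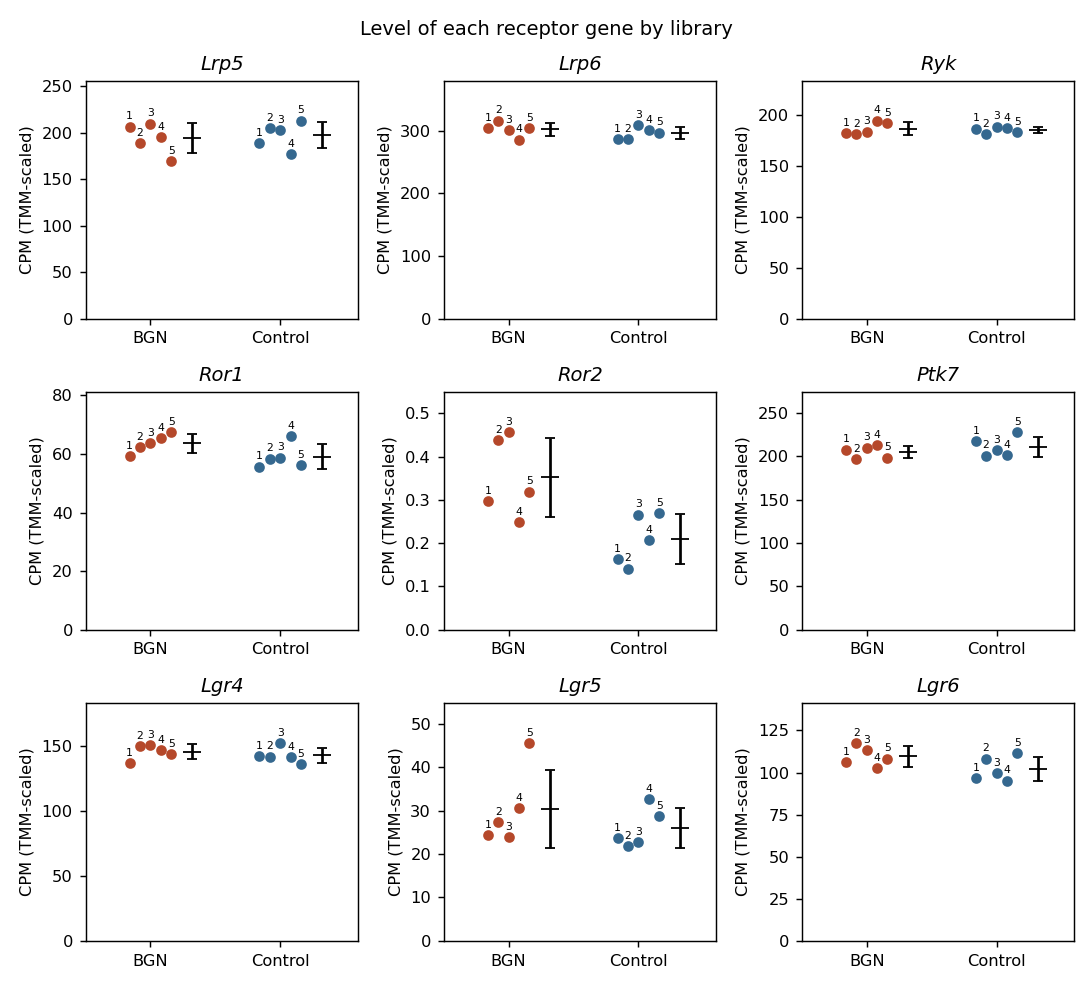
TMM-scaled CPM of each of the 9 receptor genes, 1 panel per gene, with BGN left of Control, points numbered by replicate, and mean and SD (n = 5) beside them. The axes start at 0, and groups overlap in every panel; Lgr5 in BGN replicate 5, at 45.6 CPM, lies farthest above the rest of its group.

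Among the R-spondin receptors, Lgr4 was the most abundant and Lgr5 the least. Lgr4, which is needed for mammary development in the mouse, was at 137, 149.9, 151, 147 and 144 CPM in BGN libraries and 142, 142, 152, 142 and 136 CPM in Control libraries. The lowest library was Control replicate 5 and the highest Control replicate 3, so all BGN libraries lay within the Control range. The log2 fold change was 0.03 ± 0.042 (SE; interval -0.06 to 0.12; adjusted p = 0.979 by edgeR), and 0.0118 without Control replicate 5 and 0.0522 without Control replicate 3.

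Lgr6 had 106, 118, 113, 102 and 108 CPM in BGN libraries, against 96.7, 108, 99.7, 95.2 and 111 CPM in Control libraries. Control replicates 1, 3 and 4 lay below all BGN libraries, and Control replicates 2 and 5 lay among them. The log2 fold change was 0.0991 ± 0.05 (SE; interval -0.0043 to 0.20; adjusted p = 0.945 by edgeR), and 0.0733 to 0.132 without single libraries.

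Lgr5 varied most. It stood at 24.3, 27.4, 23.9, 30.6 and 45.6 CPM in BGN libraries and at 23.6, 21.8, 22.7, 32.5 and 28.8 CPM in Control libraries. BGN replicate 5 alone was far above the other 9 libraries, of which Control replicate 4 was the highest. The log2 fold change of 0.23 ± 0.21 (SE; interval -0.24 to 0.71; adjusted p = 0.966 by edgeR) was 0.039 without BGN replicate 5 and 0.33 without Control replicate 4. The coefficient of variation over 10 libraries was 25.2%, where counting alone gives 4.24%, and 2.46% to 7.36% for the other tested receptors. The biological coefficient of variation that edgeR fitted for Lgr5 was 22.02%, higher than that of 99.0% of the 11965 tested genes that averaged 50 counts or more. For Ryk it was 4.79%, and 2.2% of those genes lay below it.

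By level per exon length, Lgr4 made up 56.7 ± 1.37% of the 3 R-spondin receptors in BGN and 58.2 ± 2.28% in Control, Lgr6 36.6 ± 1.38% in BGN and 35.8 ± 2.18% in Control, and Lgr5 6.75 ± 1.89% in BGN and 6.05 ± 1.12% in Control (SD, n = 5 each). Lgr5 reached its highest share, 9.94%, in BGN replicate 5. By the longest coding transcript, which for Lgr5 is much shorter than its exons together, Lgr5 made up 12.4 ± 3.21% in BGN and 11.2 ± 1.95% in Control (SD, n = 5 each), and Lgr4 stayed the largest of the 3.

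**Figure D4:**
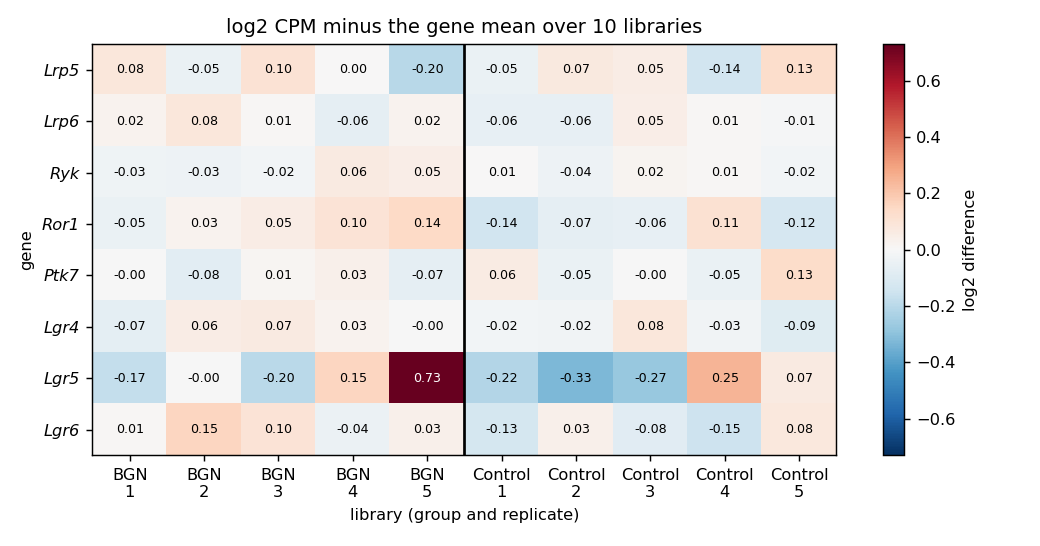
Log2 CPM of the 8 tested receptor genes minus each gene's mean over 10 libraries, by library, with BGN left of the line and Control right of it. Lgr5 in BGN replicate 5, at 0.73, is the largest departure, and the next largest, in Control replicate 2, is also of Lgr5 at -0.33.

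The receptors were also compared with each other from library to library. Among the 28 pairs of tested receptors, 15 had a Pearson correlation above 0 over the 10 libraries, and 0 passed after Benjamini-Hochberg adjustment over the 28 pairs. The strongest was between Lrp5 and Lgr5, at r = -0.75 (permutation p = 0.0104, adjusted p = 0.222) and rho = -0.48 (permutation p = 0.168, adjusted p = 0.555), which was r = -0.15 without the 2 libraries farthest from the Lrp5 median. Ror1 and Lgr5 followed, at r = 0.70 (permutation p = 0.0159, adjusted p = 0.222) and rho = 0.72 (permutation p = 0.0226, adjusted p = 0.555), or r = 0.55 without the 2 libraries farthest from the Ror1 median.

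Several receptors followed wider differences between the libraries. Each tested receptor was set against 4 library measures, which gave 32 relations, chosen with the library values already known. The measures were the summed CPM of 14 glycolysis and hypoxia genes, of 11 proliferation genes and of the 12 basal markers, and the mitochondrial share of reads, each on a log2 scale and relative to library totals. Of the 32 relations, 7 passed by Pearson's r and 3 of these also by Spearman's rho (permutation tests, two-sided, adjusted over 32). The other tested genes were not set against these measures. Whether receptors followed them more often than genes at large was therefore not tested, and the relations are not shown to be particular to receptors.

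Lgr5 was high where glycolysis and hypoxia genes were low (r = -0.95, permutation p = 0.00027, adjusted p = 0.00432; rho = -0.90, permutation p = 0.00073, adjusted p = 0.0193). The sum was 5932 CPM in BGN replicate 5 and 7335 CPM in Control replicate 4, the libraries with the highest Lgr5, and 8322 to 9803 CPM in the other 8. Without those 2 libraries r was -0.76. Of these 14 genes, 14 had estimates below 0 between BGN and Control and 0 passed. Ptk7 followed the basal marker sum, most of which was Krt14 and Krt5 (r = 0.93, permutation p = 0.00018, adjusted p = 0.00432; rho = 0.87, permutation p = 0.00181, adjusted p = 0.0193), with both at their highest in Control replicate 5, and r was 0.88 without Control replicates 4 and 5. Lrp5 ran against the proliferation genes (r = -0.87, permutation p = 0.00133, adjusted p = 0.0106; rho = -0.88, permutation p = 0.00153, adjusted p = 0.0193; r = -0.83 without BGN replicate 3 and Control replicate 4).

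The other 4 relations passed by r alone. Lrp5 followed glycolysis and hypoxia genes (r = 0.89, permutation p = 0.00059, adjusted p = 0.00629; rho = 0.71, permutation p = 0.0269, adjusted p = 0.172; r = 0.62 without BGN replicate 5 and Control replicate 4). Ror1 ran against the same genes (r = -0.73, permutation p = 0.00516, adjusted p = 0.033; rho = -0.67, permutation p = 0.0384, adjusted p = 0.202; r = -0.48 without these 2 libraries). Ror1 was also related to the basal markers (r = -0.71, permutation p = 0.00842, adjusted p = 0.0385; rho = -0.66, permutation p = 0.0442, adjusted p = 0.202; r = -0.66 without Control replicates 4 and 5). With the mitochondrial share it gave r = 0.66 (permutation p = 0.00654, adjusted p = 0.0349; rho = 0.81, permutation p = 0.00689, adjusted p = 0.0551; r = 0.63 without Control replicates 1 and 5). The mitochondrial share was 2.14% to 2.26% in BGN libraries and 1.16% to 2.27% in Control libraries (unadjusted p = 0.0873 by the exact permutation test). Each correlation was taken over all 10 libraries and so includes any difference between the groups. All these measures come from the same libraries and share their depth, and their part in the receptor levels was not tested.

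**Figure D5:**
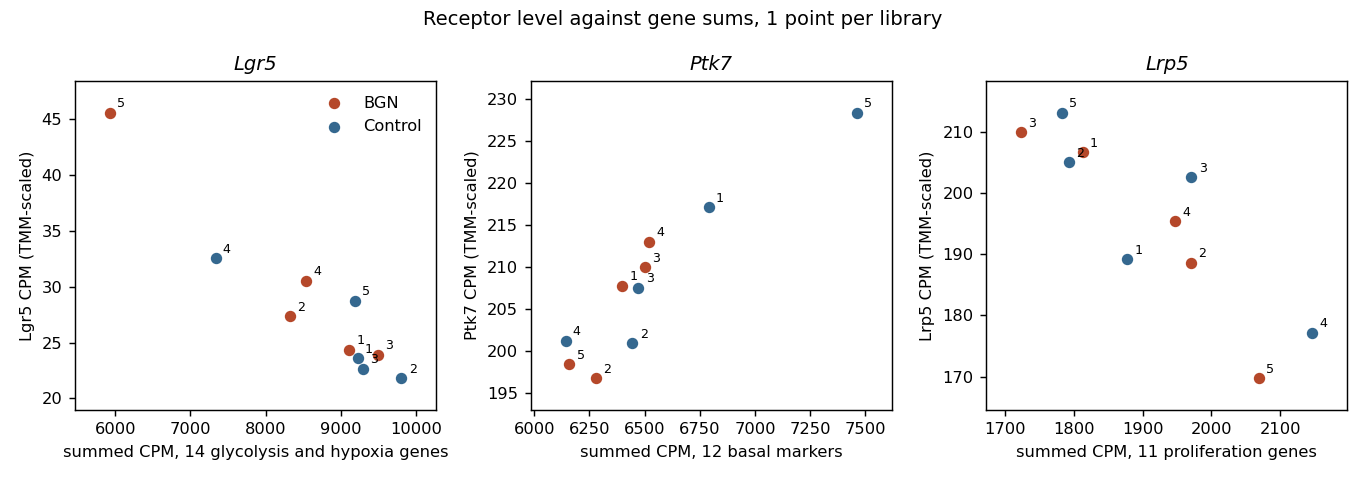
TMM-scaled CPM of Lgr5, Ptk7 and Lrp5 against the summed CPM of glycolysis and hypoxia genes, basal markers and proliferation genes, 1 point per library, numbered by replicate, in BGN and Control. Lgr5 is highest, at 45.6 CPM, in BGN replicate 5, where the glycolysis sum is lowest, Ptk7 is highest with the basal sum in Control replicate 5, and Lrp5 is lowest in BGN replicate 5 and Control replicate 4.

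The genes whose log2 CPM profile over the 10 libraries was most like that of Lgr5, by Pearson's r among 11964 candidates, were Col6a2 and Col6a1, which encode collagen VI chains, and Smpdl3b, with r = 0.96 each. Without the 2 libraries farthest from the Lgr5 median these were 0.88 for Col6a2, 0.92 for Col6a1 and 0.87 for Smpdl3b. Col6a2 was at 232 CPM in BGN replicate 5, against 174 to 206 CPM in the other 9 libraries, so it shared the same high library over a narrower range. Closest to Lrp5 was Kdm4b (r = 0.96), to Lrp6 Vcan (0.93), the gene of the matrix proteoglycan versican, to Ryk Psmg2 (0.92), to Ror1 Nfatc3 (0.96), to Ptk7 Nop53 (0.97), to Lgr4 Gpr137b-ps (0.92) and to Lgr6 Cdan1 (0.92). These are the highest of 11964 values each over 10 shared libraries, and are given as a description.

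The ligands and regulators of these receptors were unevenly expressed. None of the 4 R-spondin genes passed the filter. Rspo2 and Rspo4 had 0 reads in all 10 libraries, which allows up to 0.137 to 0.164 CPM per library, relative to library totals. Rspo1 had 16 reads in BGN and 19 in Control over 5 libraries each, and Rspo3 had 55 in BGN and 51 in Control. The ubiquitin ligase genes that the R-spondin receptors act on were present, Rnf43 at 20.7 ± 1.17 CPM in BGN libraries and 20.6 ± 1.07 CPM in Control libraries and Znrf3 at 13.3 ± 0.857 CPM in BGN libraries and 14.2 ± 0.891 CPM in Control libraries (SD, n = 5 each). Both were tested and 0 passed.

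Of 17 genes of the LRP5/6 chaperone, inhibitors and signalosome kinases, 13 were tested, 5 with estimates above and 8 below 0, and 0 passed. Mesd, the chaperone that folds LRP co-receptors, was at 58.6 ± 2.30 CPM in BGN libraries and 62.7 ± 2.33 CPM in Control libraries (log2 fold change -0.0977, interval -0.19 to -0.0018, adjusted p = 0.945 by edgeR). The kinase genes Gsk3b, Csnk1g2 and Csnk1g3, whose products phosphorylate the LRP tail, had log2 fold changes of 0.0966, -0.0746 and 0.03. Dkk1, a secreted inhibitor that binds LRP co-receptors, had 0 reads in all 10 libraries. Its partner Kremen1 stood at 42.7 ± 1.11 CPM in BGN libraries and 43.3 ± 1.81 CPM in Control libraries, and the inhibitor Sostdc1 at 65.4 ± 2.97 CPM in BGN libraries and 61.6 ± 5.07 CPM in Control libraries.

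The partners and effectors of Ror, Ryk and Ptk7 split evenly, 10 above and 10 below 0 of 20 tested among 21, and 0 passed; the abundant members Flna, Rhoa and Rac1 had log2 fold changes of 0.02, 0.00082 and 0.04. Wnt5a, the Ror ligand, was at 27.3 ± 1.34 CPM in BGN libraries and 25.7 ± 2.995 CPM in Control libraries (SD, n = 5 each). Among 19 WNT ligands 8 were tested, 1 above and 7 below 0, led in level by Wnt5b (log2 fold change -0.06) and Wnt7b (-0.04). Among 10 Frizzled genes 9 were tested, 7 above and 2 below 0, led by Fzd7 (0.02), Fzd6 (0.10) and Fzd1 (0.04). Of 20 beta-catenin target genes 14 were tested, 8 above and 6 below 0 with a median of 0.0047. That list includes the receptor Lgr5 and shares genes with the lists above, so it is not independent of them. Cd44, Ccnd1 and Sox9 were the most abundant, with log2 fold changes of 0.11, 0.0031 and 0.07. The targets Lef1, Sp5, Ascl2, Nkd1 and Notum were below the filter, averaging from 0.00537 CPM (Lef1) to 0.491 CPM (Notum) over the 10 libraries. The feedback gene Axin2 was at 2.98 ± 0.412 CPM in BGN libraries and 3.48 ± 0.543 CPM in Control libraries (log2 fold change -0.22). In none of these lists did a gene pass, and the adjusted p of every tested gene named was at least 0.945 by edgeR.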

How the data were processed

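Poly-A selected RNA from 10 samples of mouse primary mammary epithelial cells was sequenced. The authors deposited a table of unscaled read counts by gene symbol. The tools in the submitters' processing notes are HISAT2 2.2.1, HTSeq, DESeq2, cutadapt 1.9.1 and FastQC, with no roles stated, and the build is GRCm39. Neither annotation release nor strand setting is given in the sources used here. In GENCODE M21 (GRCm38) no other gene's exons overlapped those of the 9 receptors. That annotation served only for exon length and this check.

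Groups and replicate numbers came from the titles. The receptors and lists were chosen with earlier results of these data known. Genes passing edgeR's filterByExpr were TMM-scaled and tested with edgeR 4.0.16 (R 4.3.3), quasi-likelihood with robust estimation, BGN over Control, Benjamini-Hochberg over 14415 genes, threshold 0.05. SEs come from the log2 fold change and F. Every pair of libraries differed by more than sampling noise (chi-square per degree of freedom 2.43 to 20.8 over genes averaging 50 counts or more). Correlations used log2 CPM (prior count 2) and 100000 permutations. Genes named besides the receptors were up to 3 most abundant tested genes of each pathway list, set regulators and ligands, and the closest profiles. The top genes of marker lists were named where a result touched them. Other basal, luminal, fibroblast and endothelial markers, and the beta-catenin targets below the filter, were named after their values were seen. Alternatives were other scalings, filters, DESeq2 1.42.0, limma-voom (limma 3.58.1), no robust estimation, the replicate block, 1 surrogate variable (sva 3.50.0) and leaving out each library, and, chosen after the data were seen, leaving out replicate 5 of both groups and another length for levels and shares. Floors of 3 counts cover counting error only, while the intervals of the fold changes also include the fitted spread among libraries.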

Additional observations from a re-analysis of the deposited data

How the results depend on the processing

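No receptor passed under any of the 21 alternatives tried (smallest adjusted p = 0.706, without Control replicate 4). With no low-count filter 3 genes passed among 26531, where 0 passed in the reported fit, and the cause was not tested. Lrp6, Ror1, Lgr4, Lgr5 and Lgr6 kept estimates above 0 in all 21. Lrp5 turned to 0.0027 with 1 surrogate variable, and without BGN replicate 5 and Control replicate 5 together, an alternative chosen after the data were seen, Lrp5 was 0.04998, Ryk -0.0032 and Ptk7 0.0028; the cause was not tested. Leaving out single libraries gave -0.0615 to 0.0215 for Lrp5 and -0.0034 to 0.0205 for Ryk. Same-numbered libraries had correlations of -0.0198 to 0.201 of their deviations from group means, 1 of 5 above 0.1 (replicate 2). Whether such libraries share more than a number was not tested and is not stated in the labels. With the replicate number as a block 0 genes passed (smallest adjusted p = 0.238) and the receptors' smallest adjusted p was 0.855, with log2 fold changes of 0.11 for Ror1, 0.21 for Lgr5 and 0.10 for Lgr6. The block changed no call. At an unadjusted p under 0.05 there were 3 receptors with the block (Ror1, Lgr5 and Lgr6), beside 825 of all 14415 tested genes. The reported fit gave 0 receptors, beside 694 of the 14415 genes. The other alternatives gave 0 to 2 receptors. Beside these were 491 of 14572 genes without Control replicate 1, the fewest, and 1549 of 26531 with no low-count filter, the most. The scalings moved the median of all genes by less than 0.1 (-0.0083 to -0.0031). Depth limits Ror2, at 3 to 9 reads per library.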

Other observations

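Relatives of Lrp5 and Lrp6 in the LDL receptor family were also expressed. Of 12 listed genes 9 were tested, 6 above and 3 below 0, with a median log2 fold change of 0.0801, and 0 passed. Sorl1, a sorting receptor gene, was at 172 ± 19.3 CPM in BGN libraries and 161 ± 13.2 CPM in Control libraries, Lrp1, an endocytic receptor gene, at 119.6 ± 23.1 CPM in BGN libraries and 109.4 ± 13.3 CPM in Control libraries, and Lrp10 at 114 ± 1.74 CPM in BGN libraries and 115 ± 8.45 CPM in Control libraries (SD, n = 5 each). The log2 fold change of Lrp1 was 0.13, with an interval from -0.21 to 0.47 (adjusted p = 0.977 by edgeR).

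Sox10, listed here among glia and neural crest markers and also known from mammary epithelium, was at 132 ± 7.57 CPM in BGN libraries and 132 ± 7.17 CPM in Control libraries, while Cdh19, the next most abundant of that list, was at 2.56 ± 0.361 CPM in BGN libraries and 2.44 ± 0.372 CPM in Control libraries (SD, n = 5 each). No receptor value was far enough from the rest of its group to be singled out, which for 5 samples takes a gap of 71.0% of the group's range. The nearest were Ror1 in Control replicate 4, with a gap of 70.2%, and Lgr5 in BGN replicate 5, with 69.3%.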
